A study of Mus musculus with 28 samples.

Results

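Adenosine signaling was followed through 4 genes chosen by symbol from GENCODE release M21, out of 49477 genes present in the count tables of both batches of mice. They were a receptor (*Adora1*), a nucleoside transporter (*Slc29a1*), an adenosine-removing enzyme (*Adk*) and an adenosine-producing enzyme (*Nt5e*). The rule used symbols alone, and each of the 4 passed the low-count filter (10 counts or more on average), as did 16266 genes in all. RNA was taken from bilateral 1 mm micropunches of the amygdala of 28 adult female mice of the inbred C57BL/6J strain, with no genetic alteration, bought at 7 weeks of age and housed singly. The Water group (10 mice) drank water alone, the Acute group (9 mice) had a tube of 20% ethanol beside water on day 28 alone, and the Chronic group (9 mice) had the same choice for 24 h on alternate days over 28 days. Brains were taken on day 29, with the ethanol tube still in the home cage of the drinking mice. The mice came as separate cohorts, called batches here, with 4 Water, 4 Acute and 3 Chronic mice in one and 6, 5 and 6 in the other.

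Adenosine outside the cell restrains neurons. The A1 receptor, encoded by *Adora1*, couples to inhibitory G proteins, lowers cyclic AMP, opens potassium channels and reduces transmitter release. The equilibrative transporter ENT1, encoded by *Slc29a1*, lets adenosine cross the membrane down its gradient and is blocked by ethanol in cell systems. Adenosine kinase, encoded by *Adk*, turns adenosine back into AMP inside the cell and is abundant in astrocytes. CD73, encoded by *Nt5e*, sits on the outer face of the membrane and makes adenosine from AMP that other ectoenzymes have released from ATP. The comparisons between groups asked whether the RNA of these genes differed after a single day or after weeks of ethanol drinking.

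Total counts ran from 20004380 to 22569562 per mouse, with batch medians of 22225772 (first) and 20231957 (second). The 8 markers of amygdala neurons were detected in every mouse, among them *Crh* at 67 to 212 counts, *Tac2* at 212 to 919, *Prkcd* at 458 to 1131 and *Rspo2* at 440 to 844. The 8 markers of striatal neurons, the neighbouring region, were also detected in every mouse, with *Drd2*, the dopamine D2 receptor, at 233 to 1784 counts and *Drd1*, the D1 receptor, at 596 to 1634. Levels below are CPM, counts scaled to a common library size, with the batch difference removed, given as the lowest, median and highest mouse and as the mean with its SD. In tissue of mixed cells, fewer cells of a type and less RNA per cell cannot be told apart.

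Measured per kilobase of annotated exon, in which genes can be compared, *Adora1* stood well above the other 3 members in the 10 Water mice. *Adora1* lies on the minus strand of chromosome 1 (GRCm38, 134199223 to 134235431, ENSMUSG00000042429), and its mean level was 26.6 CPM per kb, with mice from 21.4 to 29.4. *Adk* lies on the plus strand of chromosome 14 (21052574 to 21448569, ENSMUSG00000039197) and had 4.20 CPM per kb (3.42 to 4.74). *Slc29a1*, on the minus strand of chromosome 17 (45585200 to 45599606, ENSMUSG00000023942), had 3.52 CPM per kb (2.79 to 4.43). The ranges of *Adk* and *Slc29a1* overlapped, so these neighbours in the order were not apart beyond their spread. *Nt5e*, on the plus strand of chromosome 9 (88327197 to 88372092, ENSMUSG00000032420), was the lowest member, at 1.05 CPM per kb (0.479 to 1.67), and did not overlap the others. Among the 16266 genes tested, these mean levels stood at the percentiles 90.0, 50.9, 46.7 and 23.2.

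**Figure D1:**
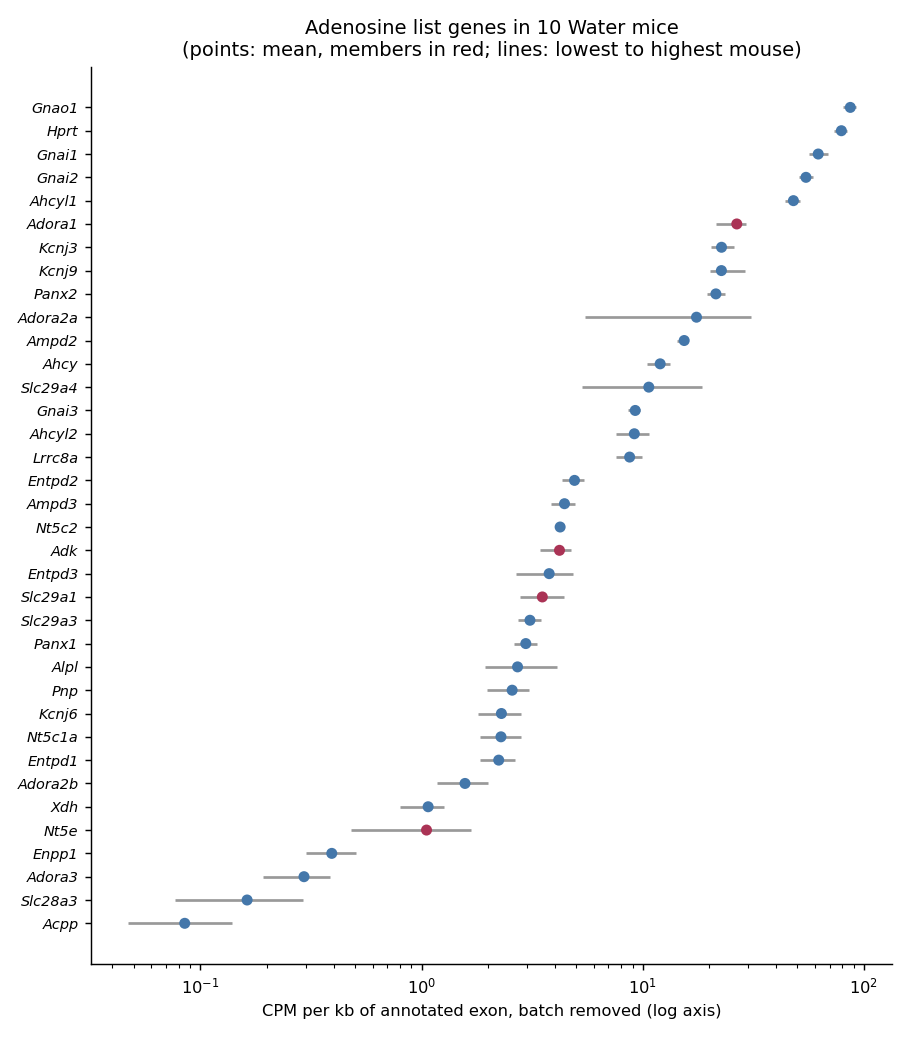
Mean level in the 10 Water mice of the 36 tested genes of the wider adenosine list, in CPM per kb of annotated exon with batch removed, on a log axis. Points are means, with the 4 members in red, and lines run from the lowest to the highest mouse; *Adora1* is 6th of 36 and *Nt5e* is 32nd.

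The plot of levels per kb also places the other receptors. *Adora2a*, a stimulatory receptor abundant in striatal projection neurons, had 17.5 CPM per kb in Water mice, with a range from 5.48 to 30.8 that reached past the lowest and the highest *Adora1* value. *Adora2b* and *Adora3*, the low-affinity and the A3 receptor genes, had 1.57 and 0.294 CPM per kb. *Ada*, adenosine deaminase, the other enzyme that removes adenosine, averaged 5.64 counts per mouse and was not tested.

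The exons of *Adora1* overlap those of *Mybph* on the opposite strand, and the exons of *Slc29a1* overlap the antisense gene *Gm17080*. Whether the counting used strand is not given in the sources used here. *Mybph* had 0 to 15 counts per mouse and *Gm17080* 1 to 14, against 2528 to 3683 for *Adora1* and 225 to 393 for *Slc29a1*. The small RNA gene *Gm26372* lies inside *Adk* without touching its exons and had 0 counts in every mouse. *Nt5e* overlaps no other annotated gene.

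None of the 4 genes passed the test in any comparison of drinking groups. In Acute against Water, 0 of 4 members were called by edgeR at an adjusted p under 0.05, against 0% of all genes tested (1549 genes, 9.52%, had an unadjusted p under 0.05). In Chronic against Water, 0 of 4 members were called, against 0.0184% of all genes, which is 3 genes (1702 genes, 10.5%, unadjusted). In Chronic against Acute, 0 of 4 members were called, against 0% of all genes (723 genes, 4.44%, unadjusted). In this edgeR fit of the genes past the low-count filter, over all 28 mice, no member had an unadjusted p under 0.05 in any of the 3 comparisons. Without that filter *Nt5e* in Chronic against Acute had an edgeR unadjusted p of 0.0396 (adjusted 0.819). The intervals below give the sizes of difference these mice leave possible.

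*Adora1* had nearly the same level in the 3 groups. Its CPM was 124, 154 and 170 in Water mice (lowest, median, highest), with a mean of 154.1 ± 13.2 (SD, n = 10). It was 125, 154 and 171 in Acute mice, with a mean of 152.9 ± 13.9 (SD, n = 9), and 125, 149 and 161 in Chronic mice, with a mean of 148.8 ± 11.5 (SD, n = 9). The groups overlapped over almost all of their ranges, and every Chronic mouse lay within the range of the Water mice. The log2 fold change was -0.011 in Acute against Water (SE 0.056, 95% interval -0.13 to 0.10, edgeR adjusted p = 0.968). In Chronic against Water it was -0.051 (SE 0.056, interval -0.17 to 0.064, edgeR adjusted p = 0.789), and in Chronic against Acute -0.040 (SE 0.058, interval -0.16 to 0.078, edgeR adjusted p = 0.999). As ratios, the interval of Chronic against Water ran from 0.892 to 1.05.

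*Slc29a1*, the ethanol-sensitive transporter, was highest in Acute and lowest in Water mice, by less than the spread between mice. Its CPM was 11.2, 14.8 and 17.7 in Water mice, with a mean of 14.1 ± 2.21 (SD, n = 10). It was 12.8, 16.1 and 17.8 in Acute mice, with a mean of 15.4 ± 1.77 (SD, n = 9), and 12.5, 14.9 and 16.4 in Chronic mice, with a mean of 14.7 ± 1.49 (SD, n = 9). In each drinking group 6 of 9 mice lay above the Water mean, and all groups overlapped. The log2 fold change was 0.13 in Acute against Water (SE 0.084, interval -0.044 to 0.30, edgeR adjusted p = 0.642). It was 0.062 in Chronic against Water (SE 0.084, interval -0.11 to 0.23, edgeR adjusted p = 0.844) and -0.066 in Chronic against Acute (SE 0.086, interval -0.24 to 0.11, edgeR adjusted p = 0.999).

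The remaining equilibrative transporters were not called either. *Slc29a2*, encoding ENT2, had values for second-batch mice alone, where 17 mice ran from 10.5 to 14.9 CPM. A fit of that batch, over 16435 genes, gave log2 fold changes of -0.034 in Acute against Water (edgeR adjusted p = 0.973) and -0.0038 in Chronic against Water (edgeR adjusted p = 0.990).

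*Adk* was highest in Acute mice, again within the spread. Its CPM was 29.2, 36.7 and 40.4 in Water mice, with a mean of 35.8 ± 3.64 (SD, n = 10). It was 33.8, 37.9 and 41.0 in Acute mice, with a mean of 37.7 ± 2.33 (SD, n = 9), and 31.1, 35.7 and 40.1 in Chronic mice, with a mean of 35.6 ± 3.37 (SD, n = 9). Of the Acute mice 7 of 9 lay above the Water mean, and of the Chronic mice 7 of 9 lay below the Acute mean, with overlapping ranges in both cases. The log2 fold change was 0.075 in Acute against Water (SE 0.058, interval -0.043 to 0.19, edgeR adjusted p = 0.692). It was -0.0081 in Chronic against Water (SE 0.058, interval -0.13 to 0.11, edgeR adjusted p = 0.976) and -0.083 in Chronic against Acute (SE 0.060, interval -0.21 to 0.039, edgeR adjusted p = 0.998).

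On the log2 scale *Nt5e* varied most between mice among the members and had the widest differences between group means. Its CPM was 4.12, 9.52 and 14.4 in Water mice, with a mean of 9.06 ± 3.12 (SD, n = 10). It was 8.40, 9.92 and 14.2 in Acute mice, with a mean of 10.8 ± 2.23 (SD, n = 9), and 4.82, 6.91 and 14.5 in Chronic mice, with a mean of 8.17 ± 3.10 (SD, n = 9). Every Acute mouse lay above the Chronic median, yet the ranges overlapped, since Chronic mouse 3 was the highest of all 28.

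The log2 fold change of *Nt5e* was 0.25 in Acute against Water (SE 0.20, interval -0.15 to 0.66, edgeR adjusted p = 0.697), with 8 of 9 Acute mice above the Water mean. It was -0.15 in Chronic against Water (SE 0.20, interval -0.56 to 0.27, edgeR adjusted p = 0.849), with 6 of 9 Chronic mice below that mean. In Chronic against Acute it was -0.40 (SE 0.21, interval -0.82 to 0.021, edgeR unadjusted p = 0.0619, adjusted p = 0.998), with 7 of 9 Chronic mice below the Acute mean. An exact 2-sided permutation test within the batches, over 16170 regroupings, gave a difference of -0.43 in log2 CPM and an unadjusted p of 0.0410 for that comparison. It is 1 of 12 such tests of the members, the other 11 of which gave exact p-values from 0.162 to 0.891. The intervals in ratios, 0.567 to 1.01 for Chronic against Acute and 0.899 to 1.58 for Acute against Water, leave room for differences that the data could not resolve.

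**Figure D2:**
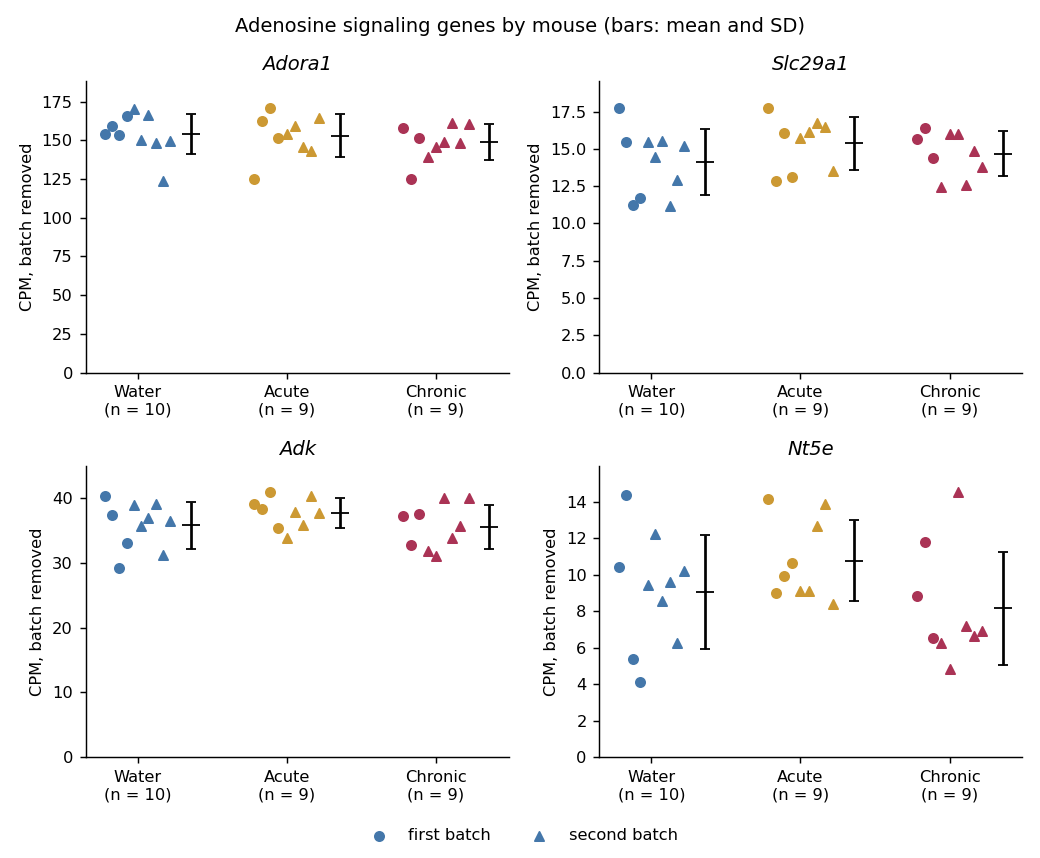
CPM with batch removed of each member in each mouse, for Water (n = 10), Acute (n = 9) and Chronic (n = 9) mice, with circles for the first batch and triangles for the second. Bars are the mean and SD; the groups overlap for all 4 genes, and *Nt5e* spreads from 4.12 to 14.5.

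**Figure D3:**
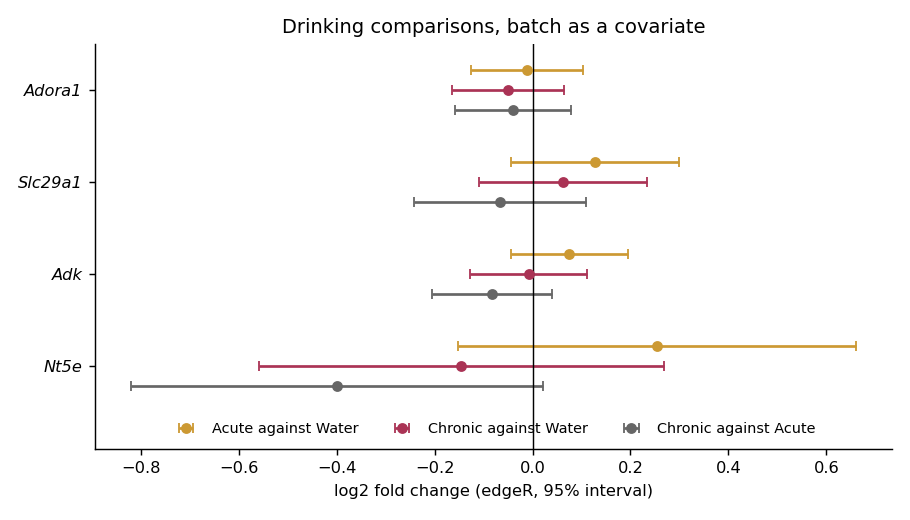
Log2 fold change of each member in the 3 comparisons (points) with its 95% interval (lines), from edgeR with batch as a covariate. All 12 intervals cross 0, and those of *Nt5e* are the widest.

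The plots by mouse and of fold changes show the same order: narrow intervals for *Adora1* and *Adk*, wide ones for *Nt5e*. With group and batch removed, the SD between mice was 0.133 on the log2 scale for *Adora1*, 0.136 for *Adk*, 0.196 for *Slc29a1* and 0.479 for *Nt5e*. Over all genes tested these spreads stood at the percentiles 48.1, 49.1, 65.1 and 93.8. Spread falls with count, and among the 500 genes nearest in mean count they stood at 87.2, 81.6, 85.8 and 96.6, so each member varied more than most genes of like count.

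Within the batches no member's difference between groups was shown to depend on the batch. *Nt5e* in Chronic against Acute had a log2 difference of -0.27 in first-batch mice and -0.47 in second-batch mice (interaction p = 0.656, edgeR adjusted p = 0.989). In Chronic against Water the values were 0.086 and -0.28 (edgeR adjusted p = 0.907 for the difference). *Slc29a1* in Acute against Water was 0.094 and 0.16, *Adk* 0.14 and 0.029, and *Adora1* -0.052 and 0.018. The signs were also opposite for *Slc29a1* in Chronic against Acute (0.049 and -0.14) and for *Adk* in Chronic against Water (0.039 and -0.038). The unadjusted p of the batch difference ran from 0.307 to 0.806 over the 12 pairs of member and comparison. The share of all genes with an adjusted p under 0.05 for a batch difference was 0% in Acute against Water, 0.00615% in Chronic against Water and 0% in Chronic against Acute, and 4.13%, 6.15% and 4.48% had an unadjusted p under 0.05.

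The spread of the members between mice was set beside the levels of cell type markers. Each marker score is the mean log2 CPM of a list, and correlations were taken over 28 mice with batch and group means removed. There were 46 relations, between pairs of members and between members and 10 marker lists, and 6 had an adjusted Pearson p under 0.05, at least 1 for each member. All p-values come from a 2-sided permutation test with 100000 resamples within batch and group, and adjusted values are by Benjamini-Hochberg over the 46.

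*Nt5e* moved with the striatal score (r = 0.828, permutation p = 0.0001, adjusted 0.00149, rho = 0.825, permutation p = 7e-05, adjusted 0.00107). Without the 2 mice farthest from the median score r was 0.807, and by batch it was 0.858 and 0.793. Water mouse 43 had both the lowest *Nt5e* of the 28 mice, 4.12 CPM, and the lowest striatal score, 5.17. Chronic mouse 3 had the highest *Nt5e*, 14.5 CPM, and the highest striatal score among the Chronic mice, 6.84. *Nt5e* also moved with the oligodendrocyte score (r = 0.752, permutation p = 0.00013, adjusted 0.00149, rho = 0.745, permutation p = 0.00019, adjusted 0.00218; 0.715 without the 2 farthest, 0.795 and 0.702 by batch). With the endothelial score r was 0.738 (permutation p = 0.0001, adjusted 0.00149, rho = 0.730, permutation p = 6e-05, adjusted 0.00107; 0.671 without the 2 farthest, 0.731 and 0.757 by batch).

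*Adk* moved with the striatal score (r = 0.754, permutation p = 0.0005, adjusted 0.0046, rho = 0.686, permutation p = 0.00236, adjusted 0.0217; 0.738 without the 2 farthest, 0.727 and 0.797 by batch). Its relation to the astrocyte score was weaker (r = 0.220, permutation p = 0.201, rho = 0.277, permutation p = 0.144). *Slc29a1* moved with the oligodendrocyte score, with r = 0.819 at the smallest p these resamples can give, 1e-05 by permutation (adjusted 0.00046, rho = 0.831, permutation p = 2e-05, adjusted 0.00092). Without the 2 farthest mice r was 0.810, and it was 0.907 and 0.706 by batch.

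*Adora1* had one relation past the threshold, to the leptomeningeal score (r = -0.527, permutation p = 0.00523, adjusted 0.0401, rho = -0.496, permutation p = 0.0106, adjusted 0.0611). It fell to -0.378 without the 2 farthest mice, so its size rests in part on them. Its relation to the neuron score did not pass (r = 0.576, permutation p = 0.0114, adjusted 0.0657, rho = 0.523, permutation p = 0.0136, adjusted 0.0656).

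**Figure D4:**
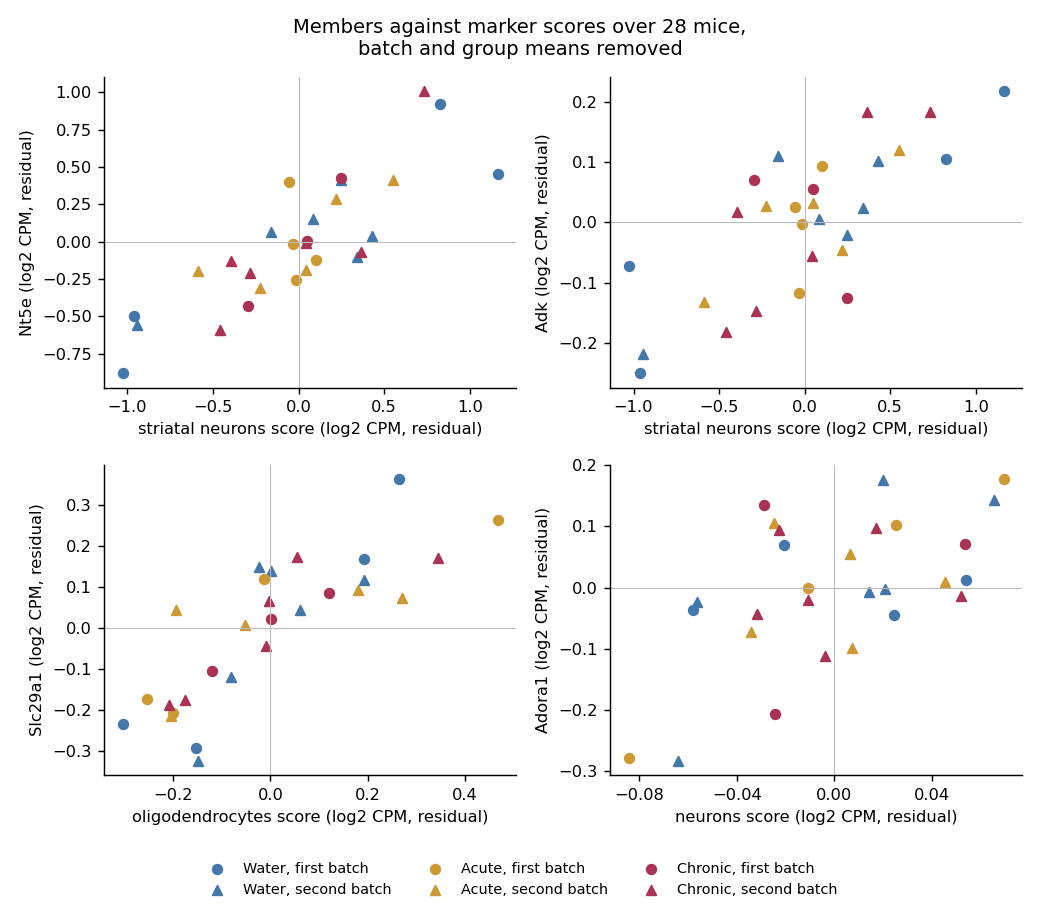
Each member against a marker score over 28 mice, both in log2 CPM with batch and group means removed; colours are groups, circles the first batch and triangles the second. *Nt5e* and *Adk* rise with the striatal score (r = 0.828 and 0.754), *Slc29a1* rises with the oligodendrocyte score (r = 0.819), and *Adora1* is more scattered against the neuron score (r = 0.576).

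The scores in the plot of members against markers were themselves related. In 3 relations between scores, chosen after the members' values were seen and adjusted among themselves, the striatal score moved with the oligodendrocyte score (r = 0.593, permutation p = 0.00319, adjusted 0.00358, rho = 0.620, permutation p = 0.0031) and with the endothelial score (r = 0.635, permutation p = 0.00358, adjusted 0.00358, rho = 0.489, permutation p = 0.0198). The oligodendrocyte and endothelial scores moved together as well (r = 0.697, permutation p = 0.00028, adjusted 0.00084, rho = 0.675, permutation p = 0.00082). Without the 2 farthest mice these were 0.651, 0.424 and 0.642. By batch they were 0.628 and 0.548, 0.680 and 0.570, and 0.778 and 0.582. Among the 6 pairs of members the highest r was 0.576, between *Slc29a1* and *Nt5e* (permutation p = 0.0175, adjusted 0.0782, rho = 0.563, permutation p = 0.0143), and no pair passed.

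The striatal score had the group order of *Nt5e* and *Adk*. Its mean was 6.64 in Acute mice (5.95 to 7.09), 6.45 in Water mice (5.17 to 7.36) and 6.19 in Chronic mice (5.65 to 6.84). The oligodendrocyte score, of which 9 of 10 genes were measured, had the group order of *Slc29a1*, at 7.10 in Acute (6.86 to 7.62), 7.05 in Chronic (6.78 to 7.33) and 6.99 in Water mice (6.54 to 7.28). The endothelial score, also related to *Nt5e*, had another order than that gene, at 4.28 in Acute, 4.27 in Chronic and 4.26 in Water mice. The neuron score (9.33 in Acute, 9.31 in Chronic, 9.27 in Water mice) and the leptomeningeal score (2.60, 2.69 and 2.69) did not have the order of *Adora1*. Scores not related to a gene past the threshold also shared its order. The microglia score (4.8340 in Acute, 4.8329 in Water, 4.8045 in Chronic mice) had that of *Nt5e* and *Adk*. The choroid plexus score (3.90 in Water, 3.67 in Acute, 3.60 in Chronic mice) had that of *Adora1*, and the neuron and endothelial scores that of *Slc29a1*. A shared order was thus not particular to the related scores. The ranges of all these scores overlapped between the groups.

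With both scores as covariates beside batch, a fit added after the data were seen, the differences of *Nt5e* shrank and 0 of 4 members were called in each comparison, beside 0, 2 and 0 of the 16266 genes in Acute against Water, Chronic against Water and Chronic against Acute. *Nt5e* was then -0.17 on the log2 scale in Chronic against Acute (SE 0.11, interval -0.39 to 0.052, edgeR adjusted p = 0.9995) and 0.11 in Acute against Water (SE 0.10, interval -0.094 to 0.32, edgeR adjusted p = 0.709). *Slc29a1* in Acute against Water was 0.059 (SE 0.059, edgeR adjusted p = 0.746), and *Adk* was 0.047 (SE 0.042, edgeR adjusted p = 0.709). The standard error of *Nt5e* in Acute against Water was thus 0.10 in place of 0.20. Both scores moved with *Nt5e* in these same mice (r = 0.828 and 0.752). Its smaller differences and errors therefore follow at least in part from which scores were added. Not every difference shrank. *Adk* in Chronic against Water went from -0.0081 to 0.044, and *Adora1* changed sign in every comparison. The scores come from the same libraries as the members, and whether they differed between drinking groups was not tested.

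The genes whose spread was most like each member's, among 11722 genes averaging 100 counts or more, are named as a description. For *Nt5e* they were *Pde1c* (r = 0.927), *Adamts3* (r = 0.917) and *Penk* (r = 0.909), the last a gene of the striatal list that encodes the precursor of enkephalins. For *Slc29a1* they were *Arhgef10l* (r = 0.888), *Lpar1* (r = 0.860) and *Kcnk2* (r = 0.840). For *Adk* they were *Arel1* (r = 0.874), *Pdzd2* (r = 0.866) and *Gpr83* (r = 0.848), and for *Adora1* *Agap2* (r = 0.925), *Ppp2r2c* (r = 0.919) and *Rasgrp1* (r = 0.916). These r are over 28 mice with batch and group means removed, share libraries and depth, and are the highest of very many.

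The wider adenosine list held 44 genes in 9 roles, of which 36 were tested, and 0 were called in each of the 3 comparisons. The median log2 fold change of the 36 was 0.020 in Acute against Water, 0.016 in Chronic against Water and 0.011 in Chronic against Acute, beside 0.0011, 0.0022 and -0.00089 over all genes. Of the 36, 20, 22 and 22 lay above 0, beside 50.6%, 51% and 49.4% of all genes. At an unadjusted p under 0.05 there were 1, 3 and 2 list genes (in Acute against Water 0 with RLE normalization or DESeq2 and 2 with no filter), which are shares of the 36 no larger than the 9.52%, 10.5% and 4.44% of all genes except in the last comparison.

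*Panx2*, a pannexin of neurons, had the smallest p of the list. It had 70.3, 77.7 and 84.7 CPM in Water mice (lowest, median, highest), 74.0, 78.8 and 83.6 in Acute mice and 80.1, 83.3 and 87.1 in Chronic mice. Every Chronic mouse lay above the medians of both other groups, and the ranges overlapped. The log2 fold change was 0.11 in Chronic against Water (SE 0.030, edgeR unadjusted p = 0.00105, adjusted p = 0.211) and 0.067 in Chronic against Acute (edgeR adjusted p = 0.998), so it did not pass.

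*Gnai2*, an inhibitory G protein subunit, had 0.093 in Chronic against Water on the log2 scale (edgeR adjusted p = 0.290). *Entpd2*, an ectoenzyme that breaks down ATP, had 0.13 in the same comparison (edgeR adjusted p = 0.382). *Panx1*, a pannexin that releases ATP, had 0.098 in Acute against Water (edgeR adjusted p = 0.514), and *Ahcyl1*, a relative of the hydrolase that makes adenosine from adenosylhomocysteine, had -0.089 in Chronic against Acute (edgeR adjusted p = 0.998). None of these passed.

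Among the receptors, *Adora2a* had the widest spread. Its CPM was 16.8, 60.5 and 94.3 in Water mice, 29.7, 57.8 and 76.5 in Acute mice and 21.1, 37.5 and 73.0 in Chronic mice, with overlap throughout. The log2 fold change in Chronic against Water was -0.29 (SE 0.28, interval -0.86 to 0.27, edgeR adjusted p = 0.746), and its SD between mice of 0.704 on the log2 scale stood at the percentile 97.6 of all genes. *Adora2b* had 0.14 (SE 0.11, edgeR adjusted p = 0.684) and *Adora3* 0.055 (SE 0.16, edgeR adjusted p = 0.939) in the same comparison.

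**Figure D5:**
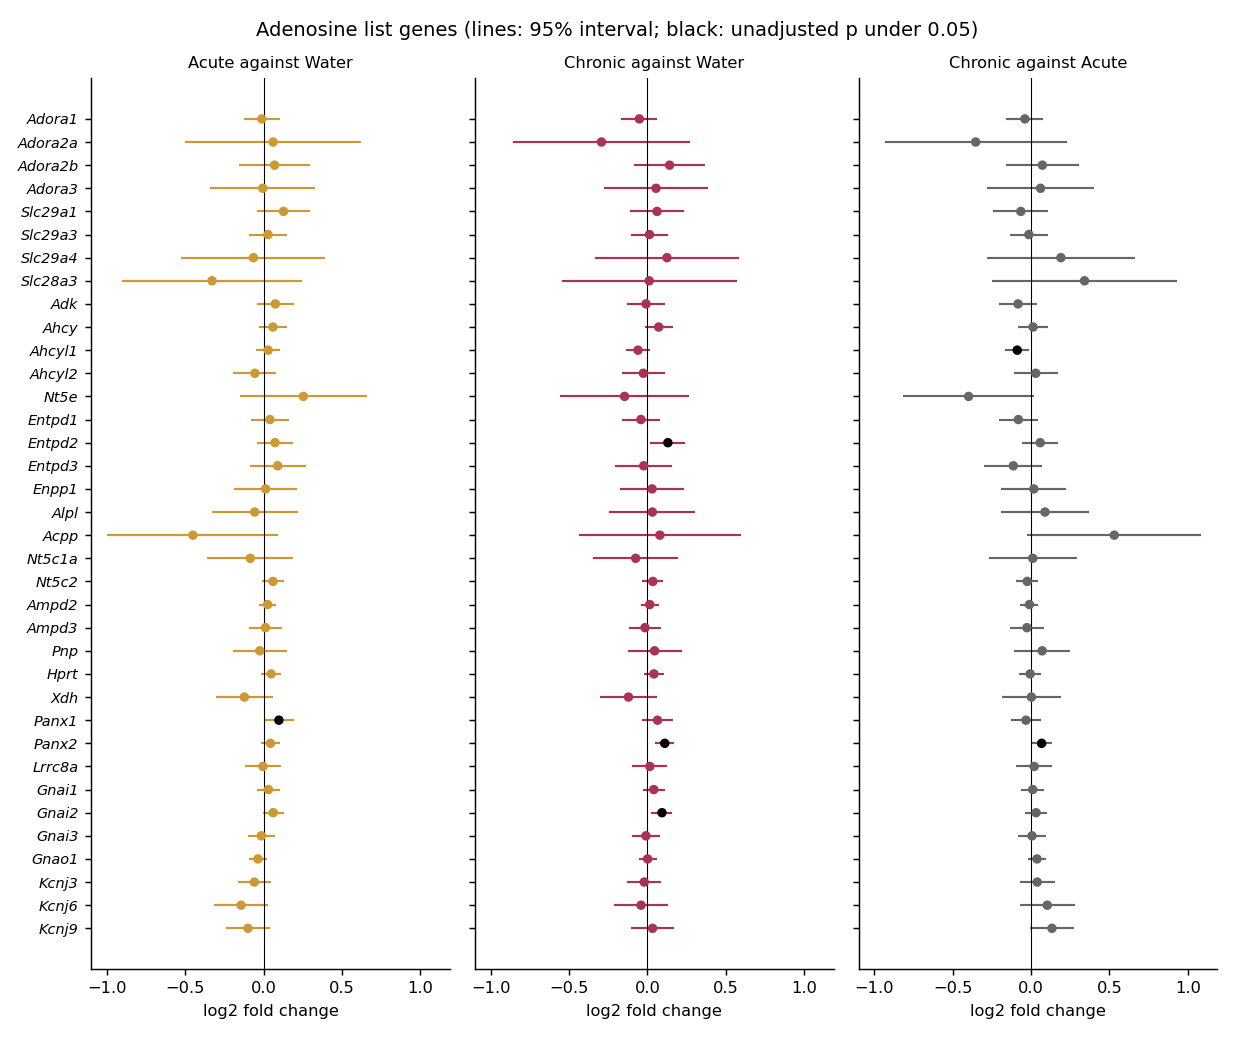
Log2 fold change (points) with its 95% interval (lines) of the 36 tested genes of the adenosine list in the 3 comparisons, from edgeR with batch as a covariate. Black points have an unadjusted p under 0.05 (1, 3 and 2 genes), none has an adjusted p under 0.05, and the widest intervals include those of *Adora2a*, *Nt5e*, *Slc29a4*, *Slc28a3* and *Acpp*.

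The plot of the list shows the genes by role. Of the 8 genes not tested, *Slc28a1*, *Slc28a2*, *Ada*, *Entpd8*, *Enpp3*, *Nt5c1b* and *Ampd1* had a mean under 10 counts, and *Slc29a2* was in the second table alone.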

How the data were processed

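Amygdala RNA was sequenced from 28 mice of 2 batches, which are separate cohorts of animals. The authors checked reads with FastQC 0.11.8 and quantified them with Salmon 0.14.1 (GRCm38, per the labels and methods), and deposited estimated counts per gene as whole numbers, a table for each batch, without normalization. Tables were joined on gene identifier. Genes averaging 10 counts or more were tested with edgeR 4.0.16 (R 4.3.3): TMM, quasi-likelihood test, batch as a covariate, all 3 groups, Benjamini-Hochberg over 16266 genes, threshold 0.05, 2-sided. CPM used a prior count of 2 and batch removed with limma 3.58.1. Marker scores are means of log2 CPM. Mice are separate animals, grouped by label, and the 55 pairs of libraries within a group and batch held no duplicate by a chi-square comparison of counts. Precision rests on counting error for genes of low count, and on differences between mice for the others. The fit was tested on simulated data.

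Members and lists were chosen with earlier results of these data known. Named genes are the members, *Adora2a*, *Adora2b*, *Adora3*, *Slc29a2* and *Ada*, list genes with an unadjusted p under 0.05, and the 3 genes most like each member. Genes named outside this rule, chosen after their values were seen, are markers, overlapping genes, genes not tested and those with wide intervals. Alternatives were RLE and upper quartile normalization, no filter or a mean of 100 counts, DESeq2 1.42.0, limma-voom (quality weights for mice), ComBat-seq then DESeq2, 2 surrogate variables (sva 3.50.0), each batch alone, only the groups compared, a replicate block, an exact permutation test and leaving out each mouse. Marker covariates and relations between scores were added after seeing the data.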

Additional observations from a re-analysis of the deposited data

Results flagged for a closer look

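*Adora1* in Water mouse 5, of the second batch, was 124 CPM with batch removed, the lowest of the 10 Water mice and far below the next by the gap against the group's range (Dixon's criterion). About 1 in 20 groups passes that criterion by chance, and 12 groups of members and drinking conditions were examined at both ends.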

How the results depend on the processing

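No member had an adjusted p under 0.05 in any alternative that gave one. DESeq2 gave none for *Nt5e* in Acute against Water or for *Slc29a1* and *Nt5e* in Chronic against Water, ComBat-seq then DESeq2 gave none for the latter pair, and the exact permutation test is unadjusted. Genes called in Acute against Water numbered 0, but 1 with no filter, 9 with DESeq2, 2 with limma-voom and sample quality weights, 30 with ComBat-seq then DESeq2 and 1 with 2 surrogate variables. In Chronic against Water they numbered 3, but 38 with DESeq2, 88 with ComBat-seq then DESeq2, 0 in the first batch alone, 5 with surrogate variables, 4 with no filter and in the second batch alone, and 2 with weighted limma-voom, only the groups compared and marker covariates. In Chronic against Acute they numbered 0, but 1 with no filter. Some signs turned. *Adora1* in Acute against Water became 0.0057 (weighted limma-voom), 0.019 (second batch alone), 0.0042 (surrogate variables) and 0.016 (marker covariates). With marker covariates *Adora1* became 0.020 in Chronic against Water and 0.0045 in Chronic against Acute. *Adk* in Chronic against Water became 0.037 (first batch alone), 0.0038 (surrogate variables) and 0.044 (marker covariates). *Nt5e* in Chronic against Water turned from -0.15 to 0.085 in the first batch alone, and *Slc29a1* in Chronic against Acute 0.052 there and 0.010 with surrogate variables. *Nt5e* in Chronic against Acute had an unadjusted p under 0.05 in the exact permutation test (-0.43, p = 0.0410), with no filter (p = 0.0396), with weighted limma-voom (p = 0.0343) and with only the groups compared (p = 0.0419). The same held without Chronic mouse 3 (p = 0.00852), Chronic mouse 38 (p = 0.0275), Water mouse 43 (p = 0.0443), Water mouse 41 (p = 0.0471) or Acute mouse 5 (p = 0.0480), each from edgeR. With surrogate variables it was -0.19. The causes were not tested.

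Leaving out each of 28 mice moved *Adora1* in Acute against Water from -0.044 to 0.022 and *Adk* in Chronic against Water from -0.039 to 0.015. *Nt5e* ran from 0.16 to 0.37 in Acute against Water, from -0.30 to -0.041 in Chronic against Water and from -0.55 to -0.33 in Chronic against Acute, and *Slc29a1* from 0.092 to 0.17, from 0.028 to 0.11 and from -0.096 to -0.038 in these comparisons. *Adora1* ran from -0.084 to -0.016 in Chronic against Water and from -0.071 to -0.0025 in Chronic against Acute. *Adk* ran from 0.042 to 0.096 in Acute against Water and from -0.11 to -0.059 in Chronic against Acute. The sign turned in 4 fits of *Adora1* in Acute against Water, in 7 of *Adk* in Chronic against Water and in 0 of the members' other comparisons. Genes called ran from 0 to 2 in Acute against Water (2 without Chronic mouse 38, 1 without Acute mouse 34) and from 2 to 6 in Chronic against Water (6 without Water mouse 3).

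Replicate numbers are shared between groups in the second batch alone, and the correlations gave no sign that they pair mice. The 16 same-numbered pairs correlated from -0.35 to 0.34, with 4 over 0.1. Beside them, the 80 pairs of other numbers correlated from -0.36 to 0.42, with 26 over 0.1. With the replicate block *Nt5e* in Chronic against Acute was -0.42 (edgeR adjusted p = 0.982), and genes called were 0, 3 and 0.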
